A study of Homo sapiens with 14 samples.

Results

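The genes examined here encode SR splicing factors, proteins that bind RNA and carry domains rich in arginine and serine. The set has 10 members: SRSF1, SRSF2, SRSF3, SRSF4, SRSF5, SRSF6, SRSF7, SRSF10, SRSF11 and TRA2B. They were chosen by name, and every called edit or edit cluster on the strand and within the hg38 Gencode span of a member was taken. Together they held 628 edited positions, out of 363599 in the series, and all 10 had an edit in at least 1 library.

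Editing was carried out in situ in HEK293T, a human embryonic kidney line, after fixation on slides with methanol. In the RBFOX2 libraries, a rabbit antibody to the splicing factor RBFOX2 recruited a fusion of the cytidine deaminase APOBEC1 with a nanobody against rabbit IgG, so that cytosines near the antibody were turned into uracil. Enzyme-only slides received the fusion without the antibody, and Buffer-only slides received neither. Libraries were made from 1 ng or 100 pg of RNA, with 3 RBFOX2, 1 Enzyme-only and 3 Buffer-only libraries at each input, 14 in all. All came from 1 cell line with no genetic change named, the replicates were separate slides that the study treated as technical, and the p-values below therefore measure only the spread between slides. With 1 Enzyme-only library at each input, values of RBFOX2 and Enzyme-only were set side by side without a test.

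SR proteins recognise enhancer sequences in exons, recruit the spliceosome and, in several cases, escort the spliced message out of the nucleus. Most of their genes hold a poison exon, an alternative exon that brings in a premature stop codon and sends the transcript to nonsense-mediated decay, and through it many members limit their own level. RBFOX2 binds UGCAUG in introns and 3'UTRs and governs the inclusion of nearby exons. The files list called edits and no expression level, so a gene with more RNA and a gene with more editing per RNA cannot be told apart.

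Libraries held 18650 to 42589 called edits, each covered by at least 5 reads. On the strand of a gene, the 1 ng libraries held 30256 to 31948 edits in RBFOX2, 27211 in Enzyme-only and 11057 to 12274 in Buffer-only. Edits on the strand opposite to a gene did not follow this order, with 8481 to 9062, 9188 and 8316 to 9132 in the same groups. HEK293T markers (KRT8, KRT18, VIM, NEFL, NEFM) had edits for 5 of 5 genes and 136 in all libraries together, against 6 edits over 8 markers of other cell types, of which PTPRC, CD3E, HBB, ALB and PECAM1 had 0.

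The 10 genes carried more edits in RBFOX2 than in Buffer-only libraries at both inputs. At 1 ng they summed to 89, 106 and 96 edits in the RBFOX2 libraries, 65 in Enzyme-only and 25, 21 and 30 in Buffer-only. In the 100 pg libraries they were 61, 55 and 74 in RBFOX2, 40 in Enzyme-only and 21, 16 and 15 in Buffer-only. Neither input had an overlap between RBFOX2 and Buffer-only, and the Enzyme-only library lay between them each time.

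Because the libraries differed in their number of edits, the sums were also set against all edits on the strand of a gene. At 1 ng the 10 genes took 0.31% ± 0.0227 (SD, n = 3) of those edits in RBFOX2, 0.239% in Enzyme-only (95% Wilson interval 0.187% to 0.304%) and 0.214% ± 0.0384 in Buffer-only. In the 100 pg libraries these were 0.373% ± 0.0561, 0.267% (0.196% to 0.364%) and 0.165% ± 0.0232. The ranges of the RBFOX2 and Buffer-only shares did not overlap at either input. Wilson intervals here cover counting error only. Over the same spans, the opposite strand held 15 to 29 edits in RBFOX2, 13 in Enzyme-only and 12 to 17 in Buffer-only with 1 ng. With 100 pg it held 8 to 18, 22 and 9 to 16.

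The members' edits were shallow in every group. The median edit fraction at the members' sites was 2.63% to 3.25% in the RBFOX2 libraries at 1 ng, 3.12% in Enzyme-only and 2.47% to 3.81% in Buffer-only. Median coverage of those sites was 55 to 62, 61 and 41.5 to 59 reads in the same order. At 100 pg coverage spread more widely, from 82 to 146 reads in RBFOX2 and from 35 to 145 in Buffer-only. APOBEC1 prefers a cytosine that follows A or U, and the share of members' edits in that setting was 81.2% to 88.8% in RBFOX2, 81.5% in Enzyme-only and 36.7% to 61.9% in Buffer-only at 1 ng. At 100 pg it was 78.4% to 81.8%, 82.5% and 38.1% to 66.7%. Over all edits on the strand of a gene, this share was 76.3% to 77%, 72.7% and 47.1% to 48.4% at 1 ng, in the same order. The 100 pg libraries had 65.1% to 65.7%, 60% and 47.3% to 48%.

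**Figure D1:**
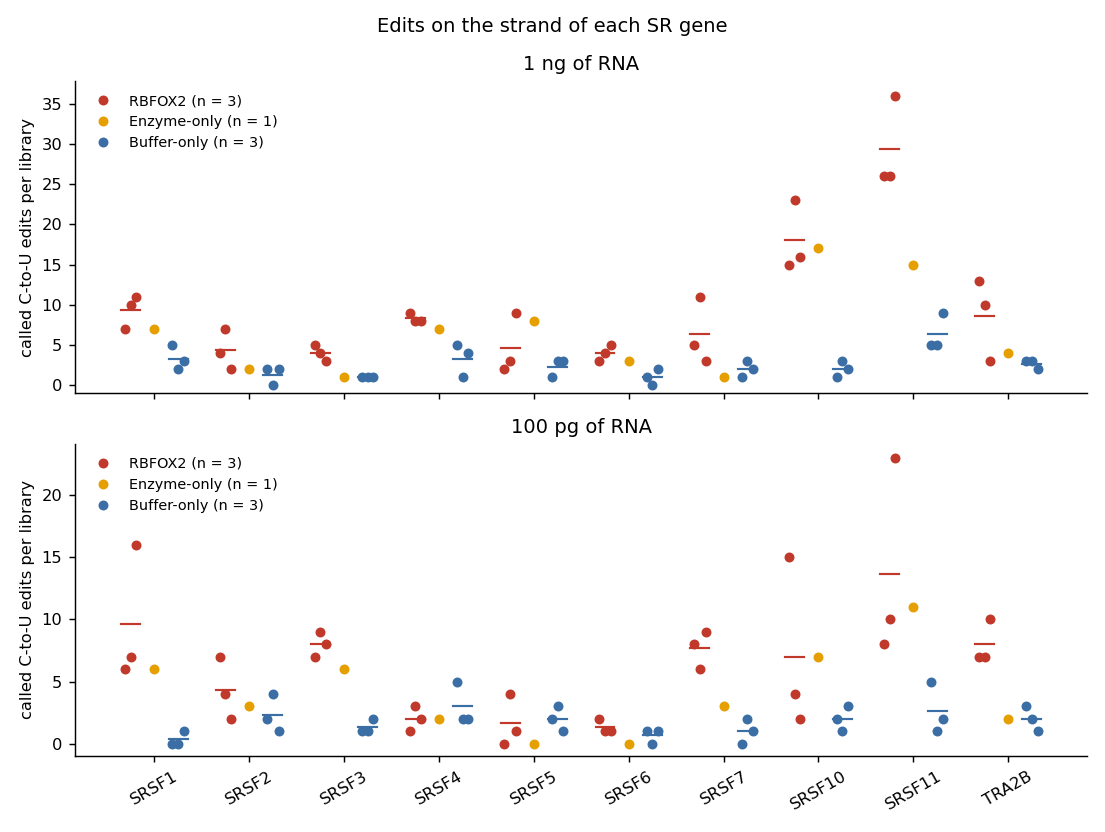
Called C-to-U edits on the strand of each SR gene, per library, at 1 ng (top) and 100 pg (bottom), with a point for each library and a bar for the group mean. SRSF11 (26 to 36 edits) and SRSF10 (15 to 23 edits) stand highest among the RBFOX2 libraries at 1 ng, and the Buffer-only libraries lie at 9 or below in every gene.

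Whether single members differed between RBFOX2 and Buffer-only was tested with edgeR's quasi-likelihood test on the edits per gene, over all genes with enough edits and with TMM scaling. At 1 ng, 21 of 2508 genes (0.837%) were higher in RBFOX2 at an adjusted p of 0.05, and 0 of the 8 members tested were among them. 2 of these 8 were higher at an unadjusted p under 0.05, as were 11.2% of all genes tested. DESeq2 called 0 of the 2508 genes, so its 0 says nothing about the members. SRSF3 and SRSF6 had too few edits to be tested. At 100 pg, 1 of 874 genes (0.114%) was called higher and 0 of 7 members. 4 of these 7 were higher at an unadjusted p under 0.05, against 11.4% of all genes tested, and DESeq2 again called 0 of all genes. The same test was run on simulated counts of the same size, with a common spread and changes in both directions. It recovered 28% of genes changed 4-fold at 1 ng and 19.5% at 100 pg. Most changes of that size were thus missed in such counts, which did not include a rise shared by most genes.

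TMM scaling centres the genes on each other and takes out a rise shared by most of them. The median log2 fold change over all genes tested at 1 ng was 0.20 with it and 1.47 without, and 0.13 and 0.86 at 100 pg. Without scaling, 966 genes were called higher and 6 lower at 1 ng, against 21 and 10 with it. In the unscaled fit 3 members were called at 1 ng, namely SRSF1, SRSF10 and SRSF11, out of 8 tested, which was close to the 38.5% of all genes called. The same fit at 100 pg called 4 of the 7 tested, namely SRSF1, SRSF3, SRSF7 and SRSF11, and 10.6% of all genes (93 of 874). With libraries scaled to their edits on the opposite strand, 4 of 8 members and 44.8% of all genes were called at 1 ng, and 4 of 7 and 13.8% at 100 pg. Members such as SRSF1 at 100 pg passed the count minimum through their RBFOX2 libraries alone, so the counts over members tested are descriptions.

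In plain numbers of edits, every RBFOX2 library exceeded every Buffer-only library in 6 of 10 members at 1 ng (SRSF1, SRSF3, SRSF4, SRSF6, SRSF10, SRSF11). Among the 8 tested members this held for 4, and over all genes tested it held for 49.5%. At 100 pg it held for 5 of 10 members (SRSF1, SRSF3, SRSF7, SRSF11, TRA2B), each of them among the 7 tested, against 25.2% of all genes tested. The Enzyme-only library lay below all 3 RBFOX2 libraries in 4 members at 1 ng (SRSF3, SRSF4, SRSF7, SRSF11) and within their range in the other 6. At 100 pg it lay below in SRSF3, SRSF6, SRSF7 and TRA2B, and within the range in the rest. Over the genes tested it lay below in 32.5% at 1 ng and 36.3% at 100 pg, against 3 of 8 and 3 of 7 members tested.

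**Figure D2:**
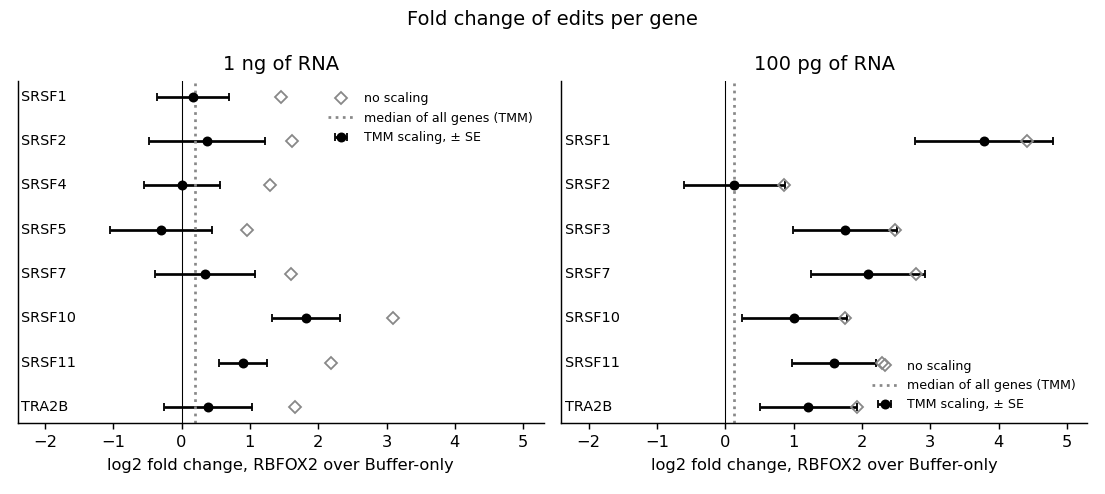
Log2 fold change of edits per gene in RBFOX2 over Buffer-only for the members tested at 1 ng (left) and 100 pg (right), with TMM scaling (black, ± SE, n = 3 against 3) and without scaling (grey diamonds); the dotted line is the median of all genes with TMM scaling. SRSF10 at 1 ng (1.82) and SRSF1 at 100 pg (3.79) lie farthest to the right.

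SRSF11, also called p54, is an SR-related protein that works with other SR proteins at splice sites and in the inclusion of short neuronal exons. Its gene (chr1:70205682-70253052, plus strand) held 26, 26 and 36 edits in the RBFOX2 libraries at 1 ng, 15 in Enzyme-only and 5, 5 and 9 in Buffer-only. The groups did not overlap. The log2 fold change was 0.89 ± 0.35 (SE), with an adjusted p of 0.189 in edgeR. From 100 pg they were 8, 10 and 23 in RBFOX2, 11 in Enzyme-only and 5, 1 and 2 in Buffer-only, with a log2 fold change of 1.59 ± 0.61 (edgeR adjusted p 0.193). On the opposite strand it held 10, 7 and 6 edits in RBFOX2 at 1 ng, 3 in Enzyme-only and 3, 3 and 7 in Buffer-only.

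By its MANE Select transcript, the reference isoform, most SRSF11 edits at 1 ng lay in introns. They numbered 19, 23 and 32 in RBFOX2, 9 in Enzyme-only and 4, 4 and 8 in Buffer-only. By any Gencode transcript, 6, 10 and 16 of the RBFOX2 edits were intronic and 11, 13 and 9 lay in noncoding exons. In the RBFOX2 libraries, intron 2 of the MANE Select transcript (chr1:70228556-70232267) held the larger share of the intronic edits. This intron of 3712 nt contains the 3 annotated poison exons of SRSF11, of 62, 109 and 117 nt. Inside it were 17, 16 and 20 edits in the RBFOX2 libraries, 3 in Enzyme-only and 3, 2 and 3 in Buffer-only. The remaining introns, 39700 nt in all, held 2, 7 and 12 edits in RBFOX2, 6 in Enzyme-only and 1, 2 and 5 in Buffer-only. Per kilobase, intron 2 thus had 4.76 ± 0.561 (SD, n = 3) edits in RBFOX2 and 0.718 ± 0.156 in Buffer-only, and the remaining introns had 0.176 ± 0.126 and 0.0672 ± 0.0524. Intron 2 was examined because it holds the poison exons, but its values were known when it was singled out, and no test was made. On the opposite strand it held 3, 1 and 1 edits in RBFOX2, 0 in Enzyme-only and 2, 2 and 2 in Buffer-only.

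At 100 pg intron 2 held few edits, 1, 2 and 7 in RBFOX2, 2 in Enzyme-only and 1, 0 and 0 in Buffer-only. The poison exons, 62, 109 and 117 nt of the intron's 3712 nt, held a minority of its edits. These counts are not set against the length of the exons. Of the 53 edits in the RBFOX2 libraries at 1 ng, 2, 0 and 7 by library lay inside one of the 3 exons. Median coverage at the edited positions of the intron was 56 reads in RBFOX2, 56 in Enzyme-only and 43 in Buffer-only at 1 ng.

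**Figure D3:**
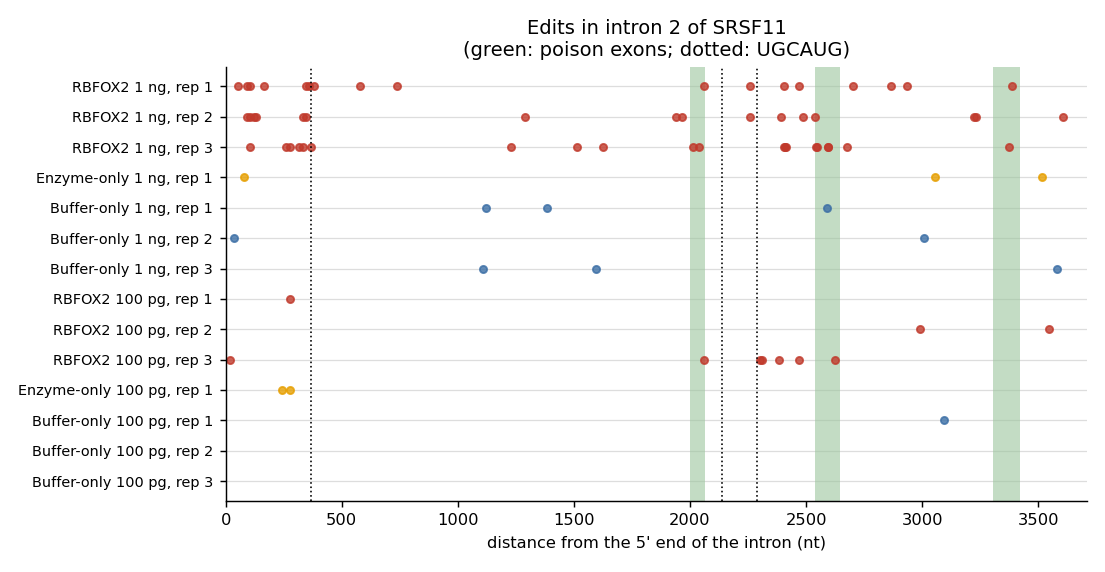
Called edits along intron 2 of SRSF11 in each of the 14 libraries, as distance in nt from the 5' end of the intron. Green bands mark the 3 poison exons and dotted lines the UGCAUG sequences; the RBFOX2 libraries at 1 ng hold 16 to 20 edits each and the other libraries 0 to 7.

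In intron 2 the 53 RBFOX2 edits at 1 ng lay at 47 positions. The study's list of confident edit clusters, which the study kept as shared by the 3 RBFOX2 libraries and absent from the Buffer-only list, held 776 clusters at 1 ng, of which 6 (0.773%) lay in the 10 genes and 3 of these in this intron. They spanned chr1:70228633-70228677, chr1:70228788-70228937 and chr1:70230935-70230994. The first held 2, 2 and 1 edits by RBFOX2 library, 1 in Enzyme-only and 0 in each Buffer-only library at 1 ng. The second held 3, 2 and 5 edits in RBFOX2 and the third 1, 1 and 3, with 0 in the Enzyme-only and Buffer-only libraries at that input. At 100 pg the second held 1 edit in RBFOX2 replicate 1 and 2 in Enzyme-only. None of the 3 overlapped a poison exon, and the second contained a UGCAUG.

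The position chr1:70228658 in the first cluster was 1 of only 2 among the 10 genes that were called in all 3 RBFOX2 libraries at 1 ng and in 0 Buffer-only libraries. It was edited in 3 of 98, 1 of 60 and 5 of 72 reads (3.06%, 1.67% and 6.94%). It was not called in Enzyme-only. The sequences that carry the intron's edits are given below from hg38 on the transcript's strand, first the recurrent position with the edited base in capitals, then the UGCAUG sites of SRSF11 with at least 3 edited positions within 50 nt, with TGCATG in capitals.
Intron 2 recurrent edit, chr1:70228643-70228672: aatctaagctattaaCatttttaaaccctt
Intron 2 motif, chr1:70228908-70228937: ccttcaaataaaTGCATGatgttatttctg
Intron 2 motif, chr1:70230829-70230858: gagacataatttTGCATGcaaaattatccc
3'UTR motif, chr1:70251065-70251094: aaaatgaaaagcTGCATGcatctacagcag

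These motif sites were chosen after their values were seen. Within 50 nt of the first intron motif lay 3, 2 and 2 edits in the RBFOX2 libraries at 1 ng and 0 in all other libraries. The second had 1, 1 and 0 edits in RBFOX2 at 1 ng and 2 in replicate 3 of RBFOX2 at 100 pg, again with 0 elsewhere. Around the 3'UTR motif the RBFOX2 libraries held 1, 0 and 1 edits at 1 ng, Enzyme-only 1, and replicate 3 of RBFOX2 at 100 pg 4.

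SRSF10 is an atypical SR protein that activates splicing when phosphorylated and represses it when dephosphorylated, as after heat shock. Its gene (chr1:23964347-23980927, minus strand) held 15, 23 and 16 edits in RBFOX2 at 1 ng, 17 in Enzyme-only and 1, 3 and 2 in Buffer-only. RBFOX2 and Buffer-only were well apart, while Enzyme-only fell inside the RBFOX2 range. The log2 fold change was 1.82 ± 0.50 (SE) with an adjusted p of 0.0772 in edgeR. SRSF10 passed the threshold when RBFOX2 replicate 1 (0.0188) or replicate 3 (0.0455) was left out. The share of all genes called in those fits is not given, so this does not set SRSF10 apart. At 100 pg the RBFOX2 libraries held 15, 4 and 2 edits, Enzyme-only 7 and Buffer-only 2, 1 and 3, so that replicate 1 alone stood above the controls. The log2 fold change there was 1.01 ± 0.77 (edgeR adjusted p 0.643).

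The edits of SRSF10 lay mainly in its 3'UTR, which is 6798 nt long in the MANE Select transcript with the stop codon counted. There the 1 ng libraries held 14, 17 and 10 edits in RBFOX2, 13 in Enzyme-only and 0, 1 and 2 in Buffer-only. Enzyme-only fell inside the RBFOX2 range here too. Between 1001 and 2000 nt from the end of the coding sequence lay 10, 5 and 6 edits in RBFOX2, 1 in Enzyme-only and 0, 1 and 0 in Buffer-only. Between 3001 and 4000 nt lay 0, 1 and 1 edits in RBFOX2 and 7 in Enzyme-only. Up to 1000 nt lay 1, 2 and 2 edits in RBFOX2 and 1 in Enzyme-only, and between 4001 and 5000 nt 2, 4 and 1 against 2. Between 2001 and 3000 nt lay 1, 0 and 0 against 0. Between 5001 and 6000 nt lay 0, 5 and 0 against 1, and between 6001 and 7000 nt 0, 0 and 0 against 1. With 100 pg the stretch from 1001 to 2000 nt held 8, 0 and 1 edits in RBFOX2 and 0 in Enzyme-only. The stretch from 3001 to 4000 nt held 1, 0 and 0 against 0. The stretches were chosen after the values were seen and with 1 Enzyme-only library the difference was not tested.

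**Figure D4:**
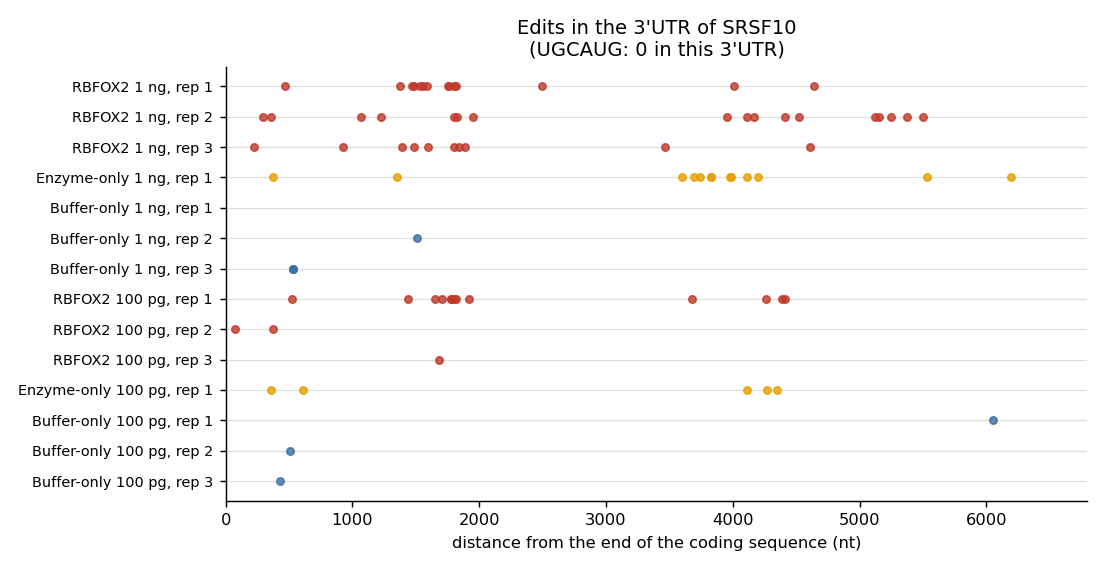
Called edits along the 3'UTR of SRSF10 in each of the 14 libraries, as distance in nt from the end of the coding sequence. RBFOX2 libraries at 1 ng hold 5 to 10 edits between 1001 and 2000 nt, where the Enzyme-only library at 1 ng holds 1.

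A confident cluster of 135 nt at 1 ng lay in the first stretch (chr1:23969238-23969372). It held 2, 2 and 3 edits in RBFOX2 at 1 ng, 4 in replicate 1 of RBFOX2 at 100 pg and 0 in every other library. It contained the second position called in all 3 RBFOX2 libraries at 1 ng and in 0 Buffer-only libraries, chr1:23969344, edited in 1 of 51, 1 of 53 and 3 of 56 reads (1.96%, 1.89% and 5.36%) and in 2 of 16 reads (12.5%) in replicate 1 at 100 pg. Its surroundings are shown with the edited base in capitals because it is the most repeated edit of this gene.
SRSF10 3'UTR recurrent edit, chr1:23969330-23969359: atttttttagattttCctggatgtatagtt
The 3'UTR of SRSF10 contains no UGCAUG, and the nearest one in the gene was 4458 nt from the centre of the cluster.

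TRA2B, transformer-2 beta, promotes the inclusion of exons with purine-rich enhancers. Its gene (chr3:185914558-185938103, minus strand) held 13, 10 and 3 edits in RBFOX2 at 1 ng, 4 in Enzyme-only and 3, 3 and 2 in Buffer-only. Replicate 3 of RBFOX2 lay level with the Buffer-only libraries. From 100 pg they were 7, 7 and 10, 2, and 3, 2 and 1, with no overlap between RBFOX2 and Buffer-only. The log2 fold changes were 0.39 ± 0.64 and 1.22 ± 0.71 (SE), with edgeR adjusted p of 0.817 and 0.495.

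In TRA2B a single 3'UTR position was called in all 14 libraries, the only one among the 10 genes. At chr3:185917554 the share of converted reads was 44.7% ± 7.06 (SD, n = 3) in RBFOX2, 47% in Enzyme-only and 46.7% ± 5.34 in Buffer-only with 1 ng. With 100 pg it was 52.1% ± 6.96, 41.1% and 38.1% ± 14.5, and coverage was 129 to 214 reads throughout. It was called as often where no enzyme had been added, and its level lay far above the median edit of the members. The base is shown in capitals in its hg38 context.
TRA2B 3'UTR position, chr3:185917540-185917569: ttgaaatgctgttttCattctgcatttgtg
A cluster around it (chr3:185917529-185917573) stood in the Buffer-only confident lists at both inputs and was removed from the RBFOX2 list at 1 ng. At 100 pg the RBFOX2 list after removal still held a longer cluster over the same place, chr3:185917529-185917603. A neighbouring confident cluster at 100 pg, chr3:185917409-185917453, held 1, 2 and 1 edits in RBFOX2 and 0 in the Enzyme-only and Buffer-only libraries of that input. Without the fixed position, the 10 genes summed to 88, 105 and 95 edits in RBFOX2 and 24, 20 and 29 in Buffer-only at 1 ng.

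Among the classical SR proteins, SRSF1, an activator of splicing that also acts in translation and export, had 7, 10 and 11 edits in RBFOX2 at 1 ng, 7 in Enzyme-only and 5, 2 and 3 in Buffer-only. At 100 pg it held 6, 7 and 16 edits in RBFOX2, 6 in Enzyme-only and 0, 0 and 1 in Buffer-only. The ratio at 100 pg, 29 edits to 1 over 3 libraries each, has a 95% exact counting interval of 4.81 to 1184. Such intervals pool the libraries without scaling. They cover counting error only, not the number of edits per library or the spread between slides. The fitted log2 fold change at 100 pg was 3.79 ± 1.01 (SE) with an adjusted p of 0.0955 in edgeR. At 1 ng it was 0.17 ± 0.52 (adjusted p 0.915). Without RBFOX2 replicate 1 the edgeR adjusted p at 100 pg was 0.0336. The share of all genes called in that fit is not given, so this does not set SRSF1 apart. The difference between RBFOX2 and Buffer-only changed between inputs by -3.78 ± 1.25. In the edgeR interaction this had an unadjusted p of 0.0025 and an adjusted p of 0.833. That fit called 0 of 2197 genes, so its 0 of 9 members says nothing about the members. Interaction fits by DESeq2 were not run.

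SRSF1 edits were mostly in the 3'UTR, 6, 8 and 10 in RBFOX2 at 1 ng, 7 in Enzyme-only and 3, 1 and 1 in Buffer-only. A confident cluster at 1 ng, chr17:58004985-58005089, held 1, 1 and 3 edits in RBFOX2 and 0 in the Enzyme-only and Buffer-only libraries of that input. At chr17:58001316 replicates 2 and 3 of RBFOX2 at 100 pg were edited in 10 of 41 and 16 of 43 reads (24.4% and 37.2%), and no other library was called there. Of the 81 SRSF1 edits over all libraries, 80 also lay within ENSG00000266086 on the same strand, so they cannot be assigned to SRSF1 alone. Around the UGCAUG of its 3'UTR shown here, the RBFOX2 libraries held 0, 1 and 0 edits at 1 ng and 0, 2 and 0 at 100 pg, with 0 elsewhere.
SRSF1 3'UTR motif, chr17:58003475-58003504: tttaaaaaactaTGCATGgttgtccttttt

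SRSF3 and SRSF7, short SR proteins that also serve as adaptors for mRNA export, gave their clearest separation at 100 pg. SRSF7 held 8, 6 and 9 edits in RBFOX2 there, 3 in Enzyme-only and 0, 2 and 1 in Buffer-only, a ratio of 23 to 3 with an exact counting interval of 2.32 to 39.9. SRSF3 held 7, 9 and 8 edits, 6, and 1, 1 and 2 in the same order. Neither passed the threshold with scaling, at log2 fold changes of 2.09 ± 0.83 and 1.76 ± 0.76 (SE) and edgeR adjusted p of 0.218 and 0.283. At 1 ng SRSF7 had 5, 11 and 3 edits in RBFOX2, 1 in Enzyme-only and 1, 3 and 2 in Buffer-only, so that replicate 3 met the Buffer-only range. SRSF3 had 5, 4 and 3 edits, 1, and 1, 1 and 1, an unscaled ratio of 12 to 3 with a counting interval of 1.08 to 22.1. That interval takes no account of the larger number of edits in the RBFOX2 libraries over all genes, and SRSF3 was not tested at 1 ng.

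The 3'UTR of SRSF7 holds a UGCAUG with 3, 2 and 1 edits within 50 nt in the RBFOX2 libraries at 1 ng, 2 in replicate 1 at 100 pg and 0 in all other libraries. It is shown because, with 8 edits, it had the most of the 49 motifs in the members.
SRSF7 3'UTR motif, chr2:38744333-38744362: tataccaaaaaaTGCATGtttgaggaattg
Another SRSF7 position, chr2:38744028, was called in 4 RBFOX2 libraries and no control, in 1 of 64 and 9 of 44 reads at 1 ng (replicates 2 and 3) and 8 of 106 and 2 of 43 at 100 pg (replicates 1 and 2). In SRSF3 the confident clusters lay in the 3'UTR at chr6:36602394-36602438 at 1 ng and at chr6:36602139-36602183 and chr6:36602379-36602513 at 100 pg. The cluster at 1 ng also held 1 edit in Enzyme-only and 0, 1 and 1 in the Buffer-only libraries, and 1 edit in each RBFOX2 library. The first cluster at 100 pg held 1 edit in RBFOX2 replicate 3 and 1 in Buffer-only replicate 2, and the second held 3, 1 and 4 in RBFOX2, 2 in Enzyme-only and 1, 0 and 1 in Buffer-only.

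SRSF2, SRSF4, SRSF5 and SRSF6, which act on exonic enhancers, carried fewer edits or edits in the controls as well. SRSF4 held 9, 8 and 8 edits in RBFOX2 at 1 ng, 7 in Enzyme-only and 5, 1 and 4 in Buffer-only, with a log2 fold change of 0.01 ± 0.56 (edgeR adjusted p 0.991). At 100 pg it held 1, 3 and 2, then 2, then 5, 2 and 2, and the groups overlapped. SRSF5 held 2, 3 and 9 edits in RBFOX2 at 1 ng, 8 in Enzyme-only and 1, 3 and 3 in Buffer-only, also overlapping. SRSF5 at 100 pg held 0, 4 and 1, then 0, then 2, 3 and 1, a ratio of 5 edits in RBFOX2 to 6 in Buffer-only. At 1 ng the fitted log2 fold change of SRSF5 was -0.30 ± 0.75 with scaling (edgeR adjusted p 0.886) and 0.96 without. At 100 pg SRSF5 had too few edits to be tested.

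SRSF2 had 4, 7 and 2 edits in RBFOX2 at 1 ng, 2 in Enzyme-only and 2, 0 and 2 in Buffer-only, and its log2 fold change was 0.37 ± 0.84 (edgeR adjusted p 0.871). At 100 pg its values were 7, 4 and 2, then 3, then 2, 4 and 1. SRSF6 had 3, 4 and 5 edits in RBFOX2 at 1 ng, 3 in Enzyme-only and 1, 0 and 2 in Buffer-only, and at most 2 in any library at 100 pg. All 24 SRSF6 edits also lay in ENSG00000288000 on the same strand. Gencode lists pseudogenes named after SRSF1, SRSF2, SRSF3, SRSF6 and SRSF10, 1 to 5 for each, and reads from such copies may have been split between places.

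Set against length, exonic edits per kilobase of the MANE Select transcript at 1 ng in RBFOX2 ranged from 0.788 ± 0.273 (SD, n = 3) in SRSF3 to 2.55 ± 1.85 in SRSF7. SRSF2 (1.94 ± 1.53), SRSF10 (1.92 ± 0.459), TRA2B (1.76 ± 1.08), SRSF1 (1.62 ± 0.286) and SRSF4 (1.59 ± 0.251) followed SRSF7, and then SRSF11 (1.18 ± 0.526), SRSF6 (0.919 ± 0.23) and SRSF5 (0.891 ± 1.02). Neighbours in this order differed by less than the larger of their SDs. SRSF11, first in number of edits, stood seventh per exonic base.

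By the region that any Gencode transcript gives, with the 3'UTR taken first, 60.8% ± 5.73 (SD, n = 3) of the members' edits in RBFOX2 at 1 ng were in 3'UTRs, 66.2% in Enzyme-only and 56.6% ± 6.45 in Buffer-only. By the MANE Select transcript alone the shares were 48.7% ± 8.01, 53.8% and 37% ± 13.6. In numbers, 3'UTRs by that transcript held 38 to 58 edits in RBFOX2, 35 in Enzyme-only and 8 to 11 in Buffer-only, and introns 30 to 50, 26 and 8 to 16. At 100 pg 3'UTRs held 33 to 50, 21 and 3 to 10, and introns only 4 to 18, 8 and 4 to 13, where RBFOX2 and Buffer-only overlapped. In the edgeR test of 3'UTR edits per gene at 1 ng, 0 of 703 genes (0%) were called higher, among them 0 of the 6 members tested, and 1 member was higher at an unadjusted p under 0.05, as were 116 genes (16.5%). SRSF10 had the largest log2 fold change of the 6, 1.63 ± 0.65, with an adjusted p of 0.152.

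Edit clusters per gene, which the study derived from the same edits, were also compared. At 1 ng the 10 genes held 61 to 76 clusters in RBFOX2, 56 in Enzyme-only and 20 to 28 in Buffer-only. With 100 pg these were 46 to 53, 31 and 15 to 18. The whole libraries held 23442 to 24715 clusters in RBFOX2, 22370 in Enzyme-only and 9982 to 11028 in Buffer-only at 1 ng. At 100 pg they held 13160 to 13614, 12837 and 8864 to 9912. The order of the groups in the members was thus also that of the whole libraries. In edgeR, 4 of 1937 genes (0.207%) had more clusters in RBFOX2 at 1 ng and 0 of 7 members. 1 of them was higher at an unadjusted p under 0.05, as were 8.31% of all genes tested. SRSF10 had 8, 18 and 13 clusters in RBFOX2, 14 in Enzyme-only and 1, 3 and 1 in Buffer-only (1.79 ± 0.56 on the log2 scale, edgeR adjusted p 0.118). When RBFOX2 replicate 1 was left out the edgeR adjusted p was 0.0276, but the share of all genes called in that fit is not given. DESeq2 called 0 of all genes in the 3'UTR and in the cluster comparison. Without scaling 4 of 6 members were called for 3'UTR edits, against 60.7% of all genes, and 2 of 7 for clusters, against 29.6%. With opposite-strand scaling these were 5 of 6 against 67.6%, and 2 of 7 against 39.2%.

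Poison exons were found in 8 of the 10 genes by the annotation, 17 exons in 11 introns, and in neither SRSF1 nor SRSF5. An exon counted if it was internal to a transcript marked for nonsense-mediated decay and lay whole within an intron of the MANE Select transcript. Few edits fell inside them. Their sum over the genes was 3, 1 and 7 in RBFOX2 at 1 ng, 1 in Enzyme-only and 5, 0 and 0 in Buffer-only, so the groups overlapped. At 100 pg it was 2, 2 and 5, then 1, then 0, 0 and 0.

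The introns that hold a poison exon gave more. They summed to 26, 25 and 29 edits in RBFOX2 at 1 ng, 13 in Enzyme-only and 10, 4 and 7 in Buffer-only. Without SRSF11 the sums were 9, 9 and 9, then 10, then 7, 2 and 4. SRSF4 intron 1, of 21128 nt and with 3 poison exons, held 5, 4 and 5 edits in RBFOX2, 7 in Enzyme-only and 3, 1 and 2 in Buffer-only. At 100 pg the sums with SRSF11 were 3, 8 and 12, then 5, then 8, 4 and 1, and RBFOX2 and Buffer-only overlapped.

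UGCAUG occurred 49 times on the strand of the 10 genes, 12 of them in SRSF11, 9 in SRSF4, 7 in SRSF5 and none in SRSF2. Only that strand was searched, and overlapping matches were counted. An edit in an RBFOX2 library lay within 50 nt of 16 of the 49, a Buffer-only edit within 50 nt of 2 and an Enzyme-only edit within 50 nt of 2. These counts pool both inputs and are not set against the number of edits, which was largest in RBFOX2. Enzyme-only had 1 library at each input. At 1 ng, 10 of 89, 11 of 106 and 8 of 96 member edits in RBFOX2 were that close (11.2%, 10.4% and 8.33%), 2 of 65 in Enzyme-only (3.08%) and 1 of 25, 0 of 21 and 1 of 30 in Buffer-only. The Wilson intervals of the RBFOX2 libraries (4.28% at the lowest, 19.5% at the highest) overlapped that of Enzyme-only, 0.848% to 10.5%. SRSF11 gave 5, 5 and 4 of the close edits in RBFOX2 and SRSF7 gave 3, 2 and 1.

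For comparison, of all edits on the strand of a gene at 1 ng, 5.88% to 6.21% in RBFOX2, 2.86% in Enzyme-only and 2.3% to 2.57% in Buffer-only were within 50 nt of a UGCAUG. Members' shares at 100 pg were 6.56%, 5.45% and 9.46% in RBFOX2, against 4.49% to 4.57% of all edits on the strand of a gene. Enzyme-only at 100 pg had 0 of 40, where the limit that a count of 0 allows, set at 3 counts of 40, is 7.5% and the Wilson upper bound 8.76%. In most libraries the share of all genes lay within the members' Wilson interval. In replicates 1 and 2 of RBFOX2 at 1 ng and replicate 3 at 100 pg it lay just below. It was 6.15%, 5.88% and 4.57% there, and the intervals began at 6.22%, 5.89% and 4.66%. These intervals treat edits as independent, yet SRSF11 alone gave 5, 5 and 6 of the close edits in those libraries. With so few edits, many from 1 gene, the members' shares could not be told apart from those of all genes.

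**Figure D5:**
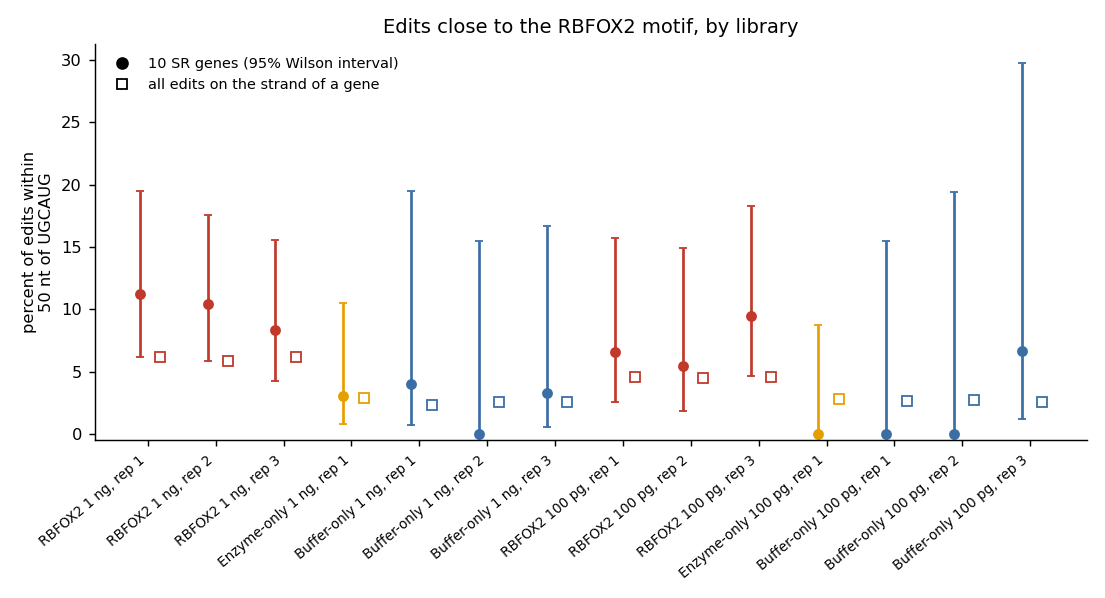
Percent of edits within 50 nt of UGCAUG in each of the 14 libraries, for the 10 SR genes (filled, with 95% Wilson intervals) and for all edits on the strand of a gene (open squares). Members reach 8.33% to 11.2% in the RBFOX2 libraries at 1 ng and 3.08% in the Enzyme-only library.

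Edits seldom recurred at the same base. Of 271 member positions called in an RBFOX2 library at 1 ng, 255 were called in 1 of the 3 alone. 2 were called in all 3 and in 0 Buffer-only libraries, as described for SRSF10 and SRSF11, and 14 in at least 2. None of these 14 was called in Enzyme-only at 1 ng. No position was called in 2 or more Buffer-only libraries and in 0 RBFOX2 libraries. Buffer-only libraries at 1 ng had only 73 member positions, against 271 in RBFOX2, so fewer could recur there. The share of recurring positions over all genes is not given, so these counts do not set the members apart. At 100 pg 0 positions recurred in all 3 RBFOX2 libraries without Buffer-only and 5 in at least 2, out of 182. Across inputs, 18 positions were called in RBFOX2 at both and in 0 Buffer-only libraries.

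The other genes of the SR pathway were followed in 4 lists. Of the 4 other SR proteins, 6 SR protein kinases, 2 carriers and 8 factors of nonsense-mediated decay, 1, 2, 0 and 5 had enough edits to be tested at 1 ng, and 0 were called in either direction. TRA2A, the close relative of TRA2B, had 7, 6 and 11 edits in RBFOX2, 11 in Enzyme-only and 2, 1 and 2 in Buffer-only, with a log2 fold change of 0.92 ± 0.65 (edgeR adjusted p 0.509). SRPK1, a kinase of SR proteins, had 12, 11 and 13, then 22, then 2, 6 and 6, at 0.05 ± 0.44 (adjusted p 0.968). At 100 pg 3 of the 20 listed genes were tested and 0 called.

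The genes whose edits per library followed the members' sum most closely were AUTS2, SMC1A, EIF1AX, RIF1 and QKI, with Spearman correlations of 0.935, 0.93, 0.926, 0.916 and 0.907 over the 14 libraries. They came from 127 genes with at least 100 edits, whose median correlation was 0.738. All of them share the libraries, their number of edits and the groups.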

How the data were processed

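C-to-U edits were measured in 14 libraries of HEK293T cells (HEK293XT in the labels). The authors trimmed single-end reads with cutadapt, removed reads that matched repeats and aligned the rest to hg38 with STAR 2.4.0. They called edits per library with SAILOR, removed known variants, and kept edits with a score above 0.5 and an edit fraction below a set limit, the highest deposited being 79.6%. The library kit was not stated to keep strand, so the strand of an edit is that given by the caller. The deposited clusters, made with FLARE, hold counts of edited and total reads, a mean coverage signal and a cluster score. The deposited confident lists give the clusters shared by replicates, with and without those of Buffer-only, and other joined values that were not used.

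Edits and clusters were counted per gene on its strand in Gencode 44 spans (the authors used an earlier release), with Python 3.11.15, pandas 2.3.3, pysam 0.24.0 and bedtools 2.31.1. RBFOX2 was compared with Buffer-only by edgeR 4.0.16 (R 4.3.3) over all genes, with TMM scaling, a count minimum of 3, a total minimum of 5 and a Benjamini-Hochberg adjusted p of 0.05. DESeq2 1.42.0, other minimums and scalings, a replicate block and leaving out each replicate were alternatives. Each fit was tested on simulated data, with 2-fold and 4-fold changes put into seeded genes. Libraries held 18650 to 42589 edits. The members and lists were chosen with earlier results of these data known. All members are named, and of the other listed genes those past the threshold or otherwise up to 4 with the most edits. The values of 1 listed gene are not reported here. Sequences were read from hg38.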

Additional observations from a re-analysis of the deposited data

How the results depend on the processing

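Scaling had the widest effect on the number of members called higher, which was 0 in each of the 4 comparisons with TMM. Without scaling it was 3 for edits at 1 ng, 4 at 100 pg, 4 for 3'UTR edits and 2 for clusters, and with libraries scaled to edits on the opposite strand it was 4, 4, 5 and 2. Of all genes tested, 38.5%, 10.6%, 60.7% and 29.6% were called higher without scaling, and 44.8%, 13.8%, 67.6% and 39.2% with opposite-strand scaling. At 1 ng SRSF10 was also called, as 1 member, with edgeR's default minimum and with no minimum. Leaving out each replicate in turn gave 0 to 1 members called for edits at 1 ng, 0 to 1 at 100 pg and 0 to 1 for clusters. The share of all genes called with these minimums or without a replicate is not given. The calls of SRSF10 and SRSF1 in such settings therefore do not set them apart from other genes. With the replicate block 0 members were called in any comparison, and the genes called higher at 1 ng fell from 21 to 0. Numbers did not pair the libraries, with correlations of deviations between same-numbered libraries of -0.03 to -0.01.

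Fold changes that turned sign were all small or far from the threshold. For edits at 1 ng, SRSF5 (-0.30) became 0.05 with no minimum, 0.96 without scaling and 0.96 with opposite-strand scaling, 0.01 without RBFOX2 replicate 1, and 0.08 and 0.06 without Buffer-only replicates 2 and 3. SRSF4 (0.01) became -0.09 without RBFOX2 replicate 1, -0.25 without Buffer-only replicate 2, -0.03 with each edit given to 1 gene and 0 at a coverage of at least 10 reads. TRA2B became -0.07 without RBFOX2 replicate 1, and SRSF2 -0.03 without Buffer-only replicate 2. SRSF2 at 100 pg became -0.03 at a coverage of at least 10. For 3'UTR edits SRSF5 (-1.37) became 0.35 without scaling and 0.34 with opposite-strand scaling. For clusters, both scalings turned SRSF7 to 0.70 and TRA2B to 0.78. Leaving out Buffer-only replicate 2 gave 0.08 for SRSF7, -0.35 for SRSF4 and -0.12 for SRSF1. SRSF4 was -0.02 without RBFOX2 replicate 1, SRSF1 -0.08 without RBFOX2 replicate 2 and SRSF5 -0.03 without Buffer-only replicate 1. Over all replicates left out in turn, edits at 1 ng ranged up to 0.62 for SRSF4 and 0.82 for TRA2B and down to -1.11 for SRSF5, and clusters up to 0.57 for SRSF1, 0.51 for SRSF4 and 0.39 for SRSF5 and down to -0.59 for SRSF7. The cause was not tested.

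Wider definitions moved the described values. By the MANE Select transcript alone, the 3'UTR share at 1 ng was 48.7% (RBFOX2) and 37% (Buffer-only). Mean edits in poison exons, 3.67 (RBFOX2) and 1.67 (Buffer-only) at 1 ng, became 17 and 6 with any decay or retained-intron stretch, and 26.7 and 7 with whole introns, a definition chosen after seeing the data. The Enzyme-only library had 1, 13 and 13 edits by these definitions, where the RBFOX2 libraries ranged from 1 to 7, 13 to 21 and 25 to 29. The members' UGCAUG share at 1 ng became 15.1% (RBFOX2) and 8.92% (Buffer-only) within 100 nt, and 24.2% and 8.92% within 200 nt. In Enzyme-only it was 7.69% and 12.3%. Over all edits on the strand of a gene the shares were 10.1% (RBFOX2) and 5.06% (Buffer-only) within 100 nt, and 16.5% and 9.71% within 200 nt. Enzyme-only had 5.7% and 10.7% there. Positions called in at least 2 RBFOX2 libraries and in 0 Buffer-only libraries numbered 14 at 1 ng and 5 at 100 pg. Few edits per gene limit every comparison.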
